A study of Homo sapiens with 9 samples.

Results

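The mRNA of 10 integrin subunits was measured in 3 human kidney cell lines, and the subunits were taken by gene symbol from a table of 28395 genes. They are the 5 alpha subunits *ITGA2*, *ITGA3*, *ITGA5*, *ITGA6* and *ITGAV* and the 5 beta subunits *ITGB1*, *ITGB3*, *ITGB4*, *ITGB5* and *ITGB8*, out of 26 integrin subunit genes in the table. All 10 had enough counts to be tested. The lines were HK2, proximal tubule cells from normal kidney that are immortalized in culture, 786-O, a line from a primary clear cell renal cell carcinoma (ccRCC) known to lack working VHL, and 786-M1A, a derivative of 786-O recovered from lung metastases after injection in vivo. No line was treated, all 3 were kept stably in Plasmax, a medium modeled on human serum, and each gave 3 libraries from separate dishes. Each group is therefore a single line, and p-values measure the spread between dishes, not between tumors or donors. The lines were set side by side as a model of progression from tubule cells to a primary cancer line and its metastatic derivative.

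Integrins are receptors of the cell surface made of an alpha and a beta subunit, and the pair decides which matrix protein is bound. *ITGA2*, *ITGA3* and *ITGA5* pair with *ITGB1*, and they bind collagens, laminins and fibronectin, respectively. *ITGA6* makes laminin receptors with *ITGB1* or *ITGB4*, the latter being the pair of the hemidesmosome, an anchor of epithelial cells to the basement membrane. *ITGAV* pairs with *ITGB1*, *ITGB3*, *ITGB5*, *ITGB6* or *ITGB8*, in receptors that recognize vitronectin, fibronectin, osteopontin or the latent form of TGF-beta. Normal tubule epithelium rests on a laminin-rich basement membrane, and laminin receptors are the classical integrins of this tissue.

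Between 30212291 and 45362428 reads were counted per library. Libraries were scaled to CPM (counts relative to the size of the library, on the usual CPM scale) with TMM factors, and the test between lines was edgeR's quasi-likelihood test on the 12695 genes that averaged 50 or more counts, with a threshold of 0.05 on the Benjamini-Hochberg adjusted p. Differences are given as log2 fold changes (log2FC) with their standard errors (SE). Where the libraries of 2 lines do not overlap, the exact two-sided permutation test gives p = 0.1, the smallest that 3 against 3 allow. The epithelial and tubule labels were checked against marker genes. The tubule factor *PAX8* was at 167.0 ± 5.66 CPM (SD, n = 3) in HK2, against 164.7 ± 6.42 CPM in 786-O and against 182.0 ± 8.5 CPM in 786-M1A, while *LRP2*, the megalin gene of mature proximal tubule, had 0 counts in every library. The 6 epithelial markers summed to between 1494.2 and 1554.8 CPM in HK2 libraries, between 473.4 and 511.5 CPM in 786-O and between 758.9 and 851.3 CPM in 786-M1A, and *CDH1*, the E-cadherin gene, had at most 7 counts in any library of the cancer lines. The 8 proximal tubule markers summed to 400.6 to 415.4 CPM in HK2, 500.5 to 523.6 CPM in 786-O and 398.4 to 437.1 CPM in 786-M1A. Only 4 of these 8 were tested, of which 2 were higher and 1 lower than in HK2 in either cancer line, and *ANPEP*, a brush border peptidase, was lowest in HK2, at 1.74 ± 0.184, 111.7 ± 3.49 and 19.8 ± 0.894 CPM. Of 6 ccRCC markers 4 were tested, and again 2 were higher and 1 lower than in HK2 in either cancer line. Of all genes tested, 41.6% were higher in either cancer line, while 42.6% were lower in 786-O and 43.3% in 786-M1A. *EGLN3*, a target of hypoxia-inducible factors, was 29.3-fold higher in 786-O and 74.7-fold higher in 786-M1A, whereas *CA9* had at most 3 counts in any library. The 6 leukocyte markers, led by *CSF1R* in each line, summed to 11.2 to 12.5 CPM in HK2, 7.12 to 7.96 CPM in 786-O and 3.94 to 5.03 CPM in 786-M1A. Of them, *PTPRC* and *CD3E* had 0 counts in every library. The 5 endothelial markers summed to at most 1.24 CPM. The 6 fibroblast markers, led by *COL1A1* in HK2 and 786-O and by *PDGFRB* in 786-M1A, summed to 77.7 to 87.0 CPM in HK2, to 281.6 to 351.0 CPM in 786-O and to 302.0 to 306.1 CPM in 786-M1A.

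Against HK2, the cancer lines carried more mRNA of 7 integrin subunits and less of 3. *ITGB5* and *ITGB8* had the largest positive differences, *ITGB4* the largest negative one, and *ITGAV* and *ITGB3* were also lower. In 786-O, 7 of the 10 subunits were higher and 3 lower than in HK2 by the edgeR test, where 41.6% of all genes tested were higher and 42.6% lower. In 786-M1A the numbers were again 7 higher and 3 lower, where 41.6% and 43.3% of all genes were, so that passing the threshold is common in these comparisons. A difference of at least 2-fold set fewer genes apart. In 786-O, 3 subunits were higher by at least 2-fold (9.18% of all genes were) and 1 was lower (13.1% were). In 786-M1A, 2 were higher (10.4% of all genes) and 3 lower (15.0%). The libraries of the lines did not overlap for any of the 10 subunits in either comparison, and they did not overlap for 85.5% of all genes between 786-O and HK2 and for 85.0% between 786-M1A and HK2. The median size of the difference was 0.85 on the log2 scale for the subunits in 786-O, with 0.47 over all genes, and 1.03 in 786-M1A, with 0.51 over all genes. Both comparisons share the HK2 libraries.

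Between 786-M1A and 786-O the differences were smaller. *ITGA2* and *ITGB5* were higher in 786-M1A, *ITGA3*, *ITGAV*, *ITGB3*, *ITGB4* and *ITGB8* were lower, and *ITGA5*, *ITGA6* and *ITGB1* did not pass the test. These 2 and 5 of 10 subunits stand beside 27.9% of all genes that were higher and 28.0% that were lower. None of the 10 differed by at least 2-fold, which 2.03% of all genes did upward and 4.55% downward. The libraries did not overlap for 6 of the 10 subunits and for 61.6% of all genes. The median size of the difference was 0.27 for the subunits and 0.17 over all genes, on the log2 scale.

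**Figure D1:**
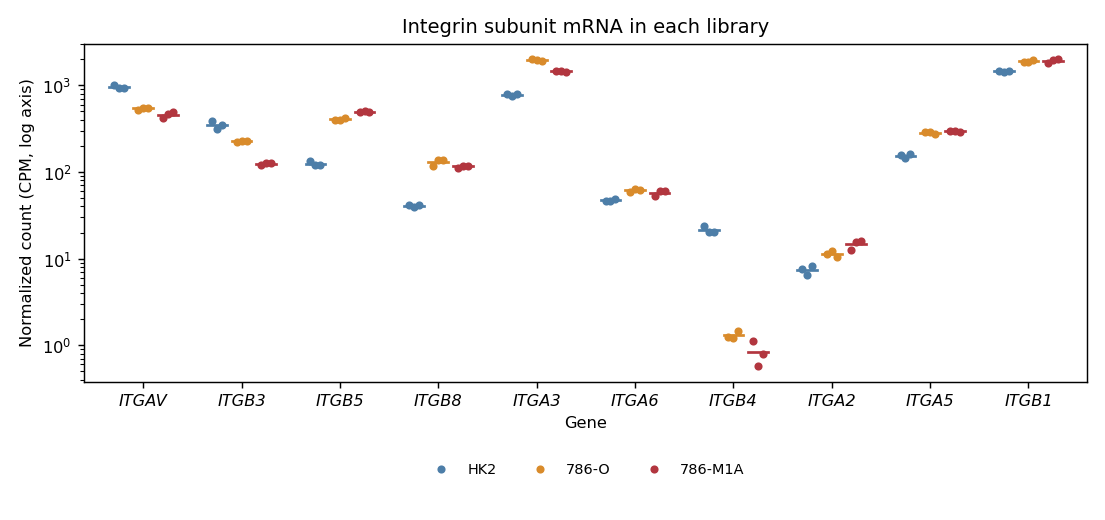
Normalized counts (CPM, log axis) of the 10 integrin subunits, with a point per library and a line at the mean of the 3 libraries of each cell line. *ITGB4* drops from between 20.1 and 23.6 CPM in HK2 to at most 1.46 CPM in the cancer lines, while *ITGB5* and *ITGB8* lie higher in both cancer lines than in HK2.

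RefSeq promoter sequences on GRCh38.p14 were found for 7 of the 10 genes, all but *ITGA3*, *ITGB3* and *ITGB4*. Those of *ITGAV*, whose mRNA fell, and of its partners *ITGB5* and *ITGB8*, whose mRNA rose, are shown to set side by side the starts of genes of one receptor family that moved apart. Each is the longest stretch of the 250 bases before the start of the main transcript that lies outside annotated exons, written 5′ to 3′ on the strand of the gene, with searched motifs in capitals. The *ITGAV* stretch is chr2:186589806-186590009 on the plus strand, that of *ITGB5* is chr3:124887366-124887599 on the minus strand, and that of *ITGB8* is chr7:20330650-20330701 on the plus strand.
ITGAV: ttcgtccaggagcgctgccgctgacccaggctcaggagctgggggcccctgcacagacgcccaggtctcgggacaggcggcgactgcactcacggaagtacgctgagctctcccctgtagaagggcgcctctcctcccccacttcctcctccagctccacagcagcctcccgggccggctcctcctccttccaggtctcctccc
ITGB5: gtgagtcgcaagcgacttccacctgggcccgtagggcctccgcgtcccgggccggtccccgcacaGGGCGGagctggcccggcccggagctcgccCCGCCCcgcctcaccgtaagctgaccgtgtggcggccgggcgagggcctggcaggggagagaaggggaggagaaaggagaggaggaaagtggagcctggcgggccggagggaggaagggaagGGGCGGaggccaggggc
ITGB8: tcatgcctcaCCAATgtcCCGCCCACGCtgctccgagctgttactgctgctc

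The motifs searched on both strands were the GC box (GGGCGG), the CCAAT box (CCAAT), the TATA box (TATAAA), the AP-1 site (TGANTCA) and the core bound by hypoxia-inducible factors (ACGTG or GCGTG). Over the whole 250 bases, *ITGB5* held 3 GC boxes and 1 HIF core, *ITGB8* held 2 GC boxes, 1 CCAAT box and 2 HIF cores, and *ITGAV* held none of the 5 motifs. In the *ITGB8* stretch a GC box and a HIF core overlap, and the other HIF cores lie outside the stretches shown. The windows of *ITGA2*, *ITGA5*, *ITGA6* and *ITGB1*, also higher than in HK2, held 4, 1, 3 and 3 GC boxes. They held 1, 1, 1 and 0 HIF cores. *ITGAV* was the only lower subunit with a window, so motifs cannot be compared by direction. Among 35116 RefSeq promoter windows of the same length, 42.6% held a GC box, 32.0% a CCAAT box and 43.2% a HIF core. A TATA box or an AP-1 site, held by 10.7% and 6.57% of the windows, was in none of the 7 windows. The 7 windows held between 12 and 32 CG pairs, above the median of 11 over all windows. These matches describe letters in the windows and carry no measurement of binding.

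*ITGAV* (NCBI gene 3685, chromosome 2 of GRCh38, 186590056 to 186680901), the alpha subunit shared by the vitronectin receptors, was lower in both cancer lines. Its levels were 1011.8, 926.0 and 939.0 CPM in the HK2 libraries, 525.3, 550.0 and 548.9 CPM in 786-O, and 420.2, 461.6 and 489.0 CPM in 786-M1A. The 3 lines did not overlap, with HK2 on top and 786-M1A at the bottom. The log2FC against HK2 was -0.83 in 786-O (SE 0.048, edgeR adjusted p = 1.41e-11) and -1.07 in 786-M1A (SE 0.048, edgeR adjusted p = 2.80e-13), and that of 786-M1A against 786-O was -0.24 (SE 0.048, edgeR adjusted p = 3.00e-04).

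The beta partners of *ITGAV* moved in opposite directions. *ITGB3* (NCBI gene 3690, chromosome 17, 47253827 to 47313743), which makes the vitronectin receptor of osteoclasts and of growing endothelium, had 382.7, 317.0 and 348.7 CPM in HK2, 221.2, 230.7 and 226.7 CPM in 786-O, and 120.5, 126.2 and 128.6 CPM in 786-M1A. It fell at each step without overlap between lines. It was 1.55-fold lower in 786-O than in HK2 (log2FC -0.63, SE 0.052, edgeR adjusted p = 3.98e-09) and 1.81-fold lower in 786-M1A than in 786-O (log2FC -0.85, SE 0.053, edgeR adjusted p = 3.92e-10). Of all genes tested, 91.2% had a smaller difference between 786-M1A and 786-O, a larger share than for any other of the 10 subunits. Against HK2, 786-M1A was 2.79-fold lower (edgeR adjusted p = 2.32e-14).

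*ITGB5* (NCBI gene 3693, chromosome 3, 124761948 to 124901418), whose pair with *ITGAV* takes up vitronectin and gathers in flat clathrin-rich adhesions, went the other way. Its levels were 132.5, 121.1 and 120.6 CPM in HK2, 394.7, 398.6 and 418.4 CPM in 786-O, and 495.1, 499.3 and 489.8 CPM in 786-M1A. Every step was upward, and no libraries of different lines overlapped. *ITGB5* was 3.24-fold higher in 786-O (log2FC 1.69, SE 0.040, edgeR adjusted p = 6.28e-20) and 3.96-fold higher in 786-M1A than in HK2 (log2FC 1.99, SE 0.041, edgeR adjusted p = 3.80e-21). The further rise from 786-O to 786-M1A was 1.22-fold (log2FC 0.29, SE 0.039, edgeR adjusted p = 1.37e-06).

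*ITGB8* (NCBI gene 3696, chromosome 7, 20329766 to 20415754), known for binding latent TGF-beta, was higher in both cancer lines than in HK2. It had 42.0, 39.0 and 41.6 CPM in HK2, 117.4, 138.4 and 136.0 CPM in 786-O, and 112.6, 116.5 and 118.6 CPM in 786-M1A. The cancer lines overlapped each other and lay far above HK2. The rise was 3.19-fold in 786-O (log2FC 1.67, SE 0.055, edgeR adjusted p = 3.97e-16) and 2.83-fold in 786-M1A (log2FC 1.5, SE 0.056, edgeR adjusted p = 2.09e-15). The difference of -0.17 on the log2 scale between 786-M1A and 786-O passed the test (edgeR adjusted p = 0.00877) but not without 786-O replicate 2 (-0.13, edgeR adjusted p = 0.0626). An antisense gene that shares exonic bases with it, *ITGB8-AS1*, had between 13 and 37 counts per library, against at least 1308 for *ITGB8*, and the strand setting of the counting is not given in the sources used here.

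*ITGB6*, an epithelial partner of *ITGAV* that activates latent TGF-beta, is outside the 10 subunits but completes the set. Its levels were 85.1, 79.0 and 74.4 CPM in HK2, 28.0, 23.4 and 24.8 CPM in 786-O, and 6.66, 6.04 and 5.92 CPM in 786-M1A. It was 3.12-fold lower in 786-O than in HK2 (edgeR adjusted p = 2.97e-15) and 4.1-fold lower in 786-M1A than in 786-O (edgeR adjusted p = 7.29e-14). Levels of different genes were compared per length, as CPM divided by the kilobases of annotated exon (CPM per kb). On this scale the 4 partners of *ITGAV* other than *ITGB1*, which are *ITGB3*, *ITGB5*, *ITGB6* and *ITGB8*, summed to 86.8 ± 6.46 CPM per kb (SD, n = 3) in HK2, against 108.1 ± 2.56 in 786-O and against 103.0 ± 0.818 in 786-M1A. *ITGB3* held 58.9 ± 1.55% of this sum in HK2, against 30.6 ± 0.626% in 786-O and against 17.8 ± 0.526% in 786-M1A. *ITGB5* held 22.1 ± 0.683%, 57.3 ± 0.726% and 73.7 ± 0.630%, respectively. The lead thus passed from *ITGB3* in HK2 to *ITGB5* in both cancer lines, and no libraries of different lines overlapped for either share. *ITGB6* went from 15.9 ± 0.868% to 4.06 ± 0.451% and 1.04 ± 0.0731%, while *ITGB8* was at 3.12 ± 0.143%, 7.96 ± 0.566% and 7.43 ± 0.170%. The ratio of *ITGB5* to *ITGB3* per length was 0.375 ± 0.0218 in HK2, against 1.87 ± 0.0618 in 786-O and against 4.15 ± 0.158 in 786-M1A. With the length of the longest transcript in place of all annotated exons it was 0.479, 2.39 and 5.29. *ITGB3* also pairs with *ITGA2B*, which had at most 25 counts in any library. mRNA levels do not measure how much of each pair reaches the cell surface.

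**Figure D2:**
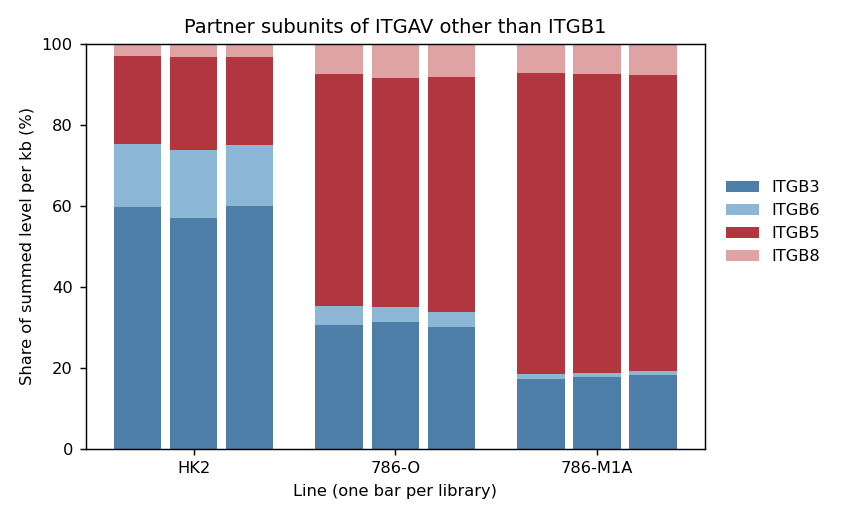
Share (%) of *ITGB3*, *ITGB6*, *ITGB5* and *ITGB8* in their summed level per kilobase of exon, with a stacked bar per library. *ITGB3* takes from 57.1% to 59.9% in HK2 libraries and from 17.3% to 18.3% in 786-M1A, and *ITGB5* from 21.7% to 22.9% and from 73.1% to 74.3%.

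Of the laminin receptors, *ITGA3* rose in the cancer lines and *ITGB4* was far lower there. *ITGA3* (NCBI gene 3675, chromosome 17, 50056110 to 50090481), the laminin-binding alpha subunit of glomerular and tubular epithelium, had 789.8, 743.8 and 792.8 CPM in HK2, 1996.6, 1966.9 and 1911.3 CPM in 786-O, and 1482.1, 1469.6 and 1411.1 CPM in 786-M1A. The lines did not overlap, and 786-M1A lay between the others. *ITGA3* was 2.52-fold higher in 786-O than in HK2 (log2FC 1.34, SE 0.035, edgeR adjusted p = 3.07e-19) and 1.87-fold higher in 786-M1A (log2FC 0.91, SE 0.035, edgeR adjusted p = 2.40e-16). From 786-O to 786-M1A it fell by 0.43 on the log2 scale (SE 0.034, edgeR adjusted p = 6.81e-10).

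*ITGB4* (NCBI gene 3691, chromosome 17, 75721459 to 75757818), the subunit with a long cytoplasmic part that ties hemidesmosomes to keratin filaments, had the widest range of line means, 4.64 on the log2 scale. HK2 libraries had 734, 811 and 943 counts, 786-O libraries 56, 46 and 62, and 786-M1A libraries 41, 22 and 30. In CPM these were 23.6, 20.1 and 20.3 in HK2, 1.26, 1.22 and 1.46 in 786-O, and 1.13, 0.573 and 0.792 in 786-M1A. Both cancer lines were thus above the floor of 3 counts, which is at most 0.0993 CPM, but far below HK2. The gene was 16.1-fold lower in 786-O (log2FC -4.01, SE 0.117, edgeR adjusted p = 4.42e-18) and 25.6-fold lower in 786-M1A (log2FC -4.68, SE 0.131, edgeR adjusted p = 1.87e-18). Of all genes tested, 94.8% and 94.7% had a smaller difference. The 6 epithelial markers were also lower in 786-O than in HK2, all of them by at least 2-fold, where 13.1% of all genes were. From 786-O to 786-M1A, where *ITGB4* and *ITGB6* were lower still, 5 of these 6 were higher and 1 lower. Of all genes, 27.9% were higher and 28.0% lower. *KRT19*, a keratin gene, rose 31.5-fold and was the 1 marker of the 6 above HK2 in 786-M1A. The other 5 were lower there than in HK2, 4 of them by at least 2-fold, where 15.0% of all genes were. The part of the epithelial markers in the *ITGB4* and *ITGB6* values was not tested. Between 786-M1A and 786-O the log2FC was -0.67 (SE 0.215, edgeR adjusted p = 0.0118). It ran from -0.95 to -0.46 as libraries were left out in turn, and the call was lost without 786-O replicate 3 (-0.58, edgeR adjusted p = 0.051) and without 786-M1A replicate 2 (-0.46, edgeR adjusted p = 0.084). *GALK1*, an opposite-strand neighbor that overlaps *ITGB4* without shared exonic bases, had between 546 and 801 counts.

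*ITGA6* (NCBI gene 3655, chromosome 2, 172427336 to 172506459), the only alpha partner of *ITGB4*, did not follow it. It had 45.9, 46.1 and 48.8 CPM in HK2, 58.8, 63.5 and 62.1 CPM in 786-O, and 53.1, 60.5 and 60.2 CPM in 786-M1A. Both cancer lines were above HK2, with a log2FC of 0.39 for 786-O (edgeR adjusted p = 4.65e-07) and 0.30 for 786-M1A (edgeR adjusted p = 1.43e-05), and they overlapped each other (log2FC -0.08, with a 95% interval from -0.19 to 0.02, edgeR adjusted p = 0.167). Per length, the ratio of *ITGB4* to *ITGA6* was 0.450 ± 0.0508 (SD, n = 3) in HK2, against 0.0212 ± 0.00214 in 786-O and against 0.0145 ± 0.00599 in 786-M1A. The other genes of the hemidesmosome list did not share one direction. In 786-O, 4 of the 7 genes were higher than in HK2 and 2 lower. In 786-M1A, 3 were higher and 3 lower than in HK2, and from 786-O to 786-M1A 1 rose and 3 fell. Of all genes, 41.6%, 41.6% and 27.9% were higher in these comparisons, and 42.6%, 43.3% and 28.0% lower. The median log2FC of the 7 was 0.13, -0.05 and -0.17 in these comparisons, where all genes had -0.01, -0.02 and 0.00. In 786-O, *PLEC*, the plectin gene that links *ITGB4* to keratins, was higher by a log2FC of 1.89 (edgeR adjusted p = 1.82e-08) and *CD151*, a tetraspanin bound to laminin receptors, by 1.64 (edgeR adjusted p = 1.74e-20), whereas *COL17A1*, a collagen of the hemidesmosome, was lower by a log2FC of -0.69 (edgeR adjusted p = 3.41e-04).

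The 5 genes whose pattern over the 3 line means was nearest to that of *ITGB4*, by Euclidean distance of centered log2 CPM, were *NRCAM* (0.0644), *SESN3* (0.0832), *SLC16A12* (0.0968), *PSTPIP2* (0.118) and *WTIP* (0.136). *NRCAM*, which encodes a neuronal cell adhesion molecule, had a mean of 19.0 CPM in HK2, against 1.2 CPM in 786-O and against 0.765 CPM in 786-M1A. With 3 lines as points, this likeness is a description.

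*ITGA2* and *ITGA5*, which pair with *ITGB1* in receptors for collagen and for fibronectin, were higher in both cancer lines. *ITGA2* (NCBI gene 3673, chromosome 5, 52989352 to 53094779), the collagen-binding alpha subunit, had 7.68, 6.42 and 8.18 CPM in HK2, 11.4, 12.1 and 10.5 CPM in 786-O, and 12.7, 15.7 and 15.8 CPM in 786-M1A. Its levels rose at each step without overlap. It was 1.52-fold higher in 786-O than in HK2 (log2FC 0.60, SE 0.10, edgeR adjusted p = 1.88e-05), 1.98-fold higher in 786-M1A than in HK2 (log2FC 0.99, SE 0.098, edgeR adjusted p = 2.21e-08), and 1.3-fold higher in 786-M1A than in 786-O (log2FC 0.38, SE 0.092, edgeR adjusted p = 0.00171). *ITGA5* (NCBI gene 3678, chromosome 12, 54395261 to 54419266), the alpha subunit of the fibronectin receptor, had 156.4, 144.7 and 162.3 CPM in HK2, 291.5, 290.1 and 272.0 CPM in 786-O, and 300.8, 298.0 and 287.3 CPM in 786-M1A. The cancer lines overlapped each other above HK2. The rise over HK2 was 1.84-fold in 786-O (edgeR adjusted p = 2.15e-14) and 1.91-fold in 786-M1A (edgeR adjusted p = 6.62e-15), and the difference between the cancer lines lay between -0.03 and 0.14 on the log2 scale (95% interval, edgeR adjusted p = 0.289).

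*ITGB1* (NCBI gene 3688, chromosome 10, 32900318 to 32958230), the common partner of *ITGA2*, *ITGA3*, *ITGA5* and *ITGA6*, had, with *ITGA6*, the narrowest range of line means, 0.38 on the log2 scale against 0.39 for *ITGA6*. It had 1481.7, 1442.3 and 1467.7 CPM in HK2, 1850.6, 1872.4 and 1938.3 CPM in 786-O, and 1789.4, 1965.4 and 1987.8 CPM in 786-M1A. Both cancer lines were above HK2, by 1.29-fold in 786-O (log2FC 0.37, edgeR adjusted p = 7.22e-09) and 1.31-fold in 786-M1A (log2FC 0.39, edgeR adjusted p = 2.76e-09). Between the cancer lines the log2FC was 0.02, with a 95% interval from -0.06 to 0.10 (edgeR adjusted p = 0.666). The annotation lists a processed pseudogene, *ITGB1P1*, that was not counted as a gene in the table, so how reads shared with it were assigned is not known.

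**Figure D3:**
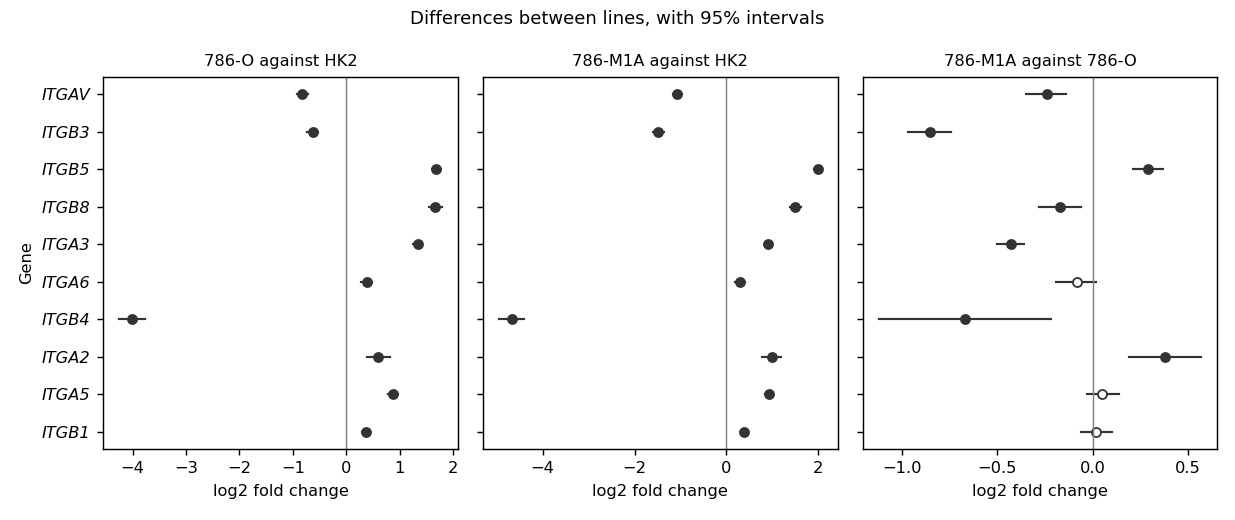
Log2 fold changes of the 10 subunits in the 3 comparisons, as points with 95% intervals from the edgeR fit, filled where the adjusted p was under 0.05. The panels have different scales. Against HK2 all 10 points are filled and *ITGB4* lies farthest from 0 at -4.01 and -4.68, and between 786-M1A and 786-O the open points are *ITGA6*, *ITGA5* and *ITGB1*.

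Per length, *ITGB1* and *ITGA3* led in all 3 lines. *ITGB1* was at 100.5 ± 1.37 CPM per kb (SD, n = 3) in HK2, against 129.6 ± 3.14 in 786-O and against 131.5 ± 7.46 in 786-M1A, and *ITGA3* at 79.1 ± 2.80, 199.8 ± 4.41 and 148.4 ± 3.87, respectively. In HK2 they were followed by *ITGB3* (51.2 ± 4.81) and *ITGAV* (49.6 ± 2.39), whose libraries overlapped, then *ITGA5* (20.9 ± 1.21) and *ITGB5* (19.1 ± 1.03), which also overlapped, and *ITGA6* (7.03 ± 0.244), *ITGB4* (3.16 ± 0.288), *ITGB8* (2.70 ± 0.107) and *ITGA2* (0.940 ± 0.115). In 786-O, *ITGB5* (62.0 ± 1.95) ranked next, ahead of *ITGA5* (38.5 ± 1.47), *ITGB3* (33.1 ± 0.70) and *ITGAV* (28.0 ± 0.721). *ITGA6* and *ITGB8* overlapped there, and *ITGB4* (0.194 ± 0.0192) was last, below *ITGA2*. In 786-M1A, *ITGB5* (75.9 ± 0.731) again ranked next, followed by *ITGA5* (40.0 ± 0.968), and *ITGAV* (23.6 ± 1.79) and *ITGB3* (18.3 ± 0.612) came next, with *ITGB4* (0.123 ± 0.0417) again last. Among the 5 alpha subunits, *ITGAV* held 31.5 ± 0.979% of the summed level per length in HK2, against 10.1 ± 0.403% in 786-O and against 10.6 ± 0.903% in 786-M1A, and *ITGA3* held 50.2 ± 0.431%, 72.1 ± 0.412% and 66.7 ± 1.03%. Among the 5 beta subunits, *ITGB1* held 56.9 ± 1.63%, 55.5 ± 0.262% and 56.3 ± 1.28%, with libraries that overlapped between the lines. With the longest transcript these shares were 73.3 ± 1.25%, 70.0 ± 0.233% and 70.1 ± 1.11%, and the HK2 libraries lay above those of both cancer lines. The order depends in part on the length used. In 786-M1A, with the longest transcript *ITGB1* was at 341.0 and *ITGA3* at 265.4 CPM per kb, and in HK2 *ITGAV* was at 120.6 and *ITGB3* at 58.8 CPM per kb.

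Of the 16 integrin subunits outside the 10, 6 had a mean of at least 50 counts. Against HK2, *ITGAE* did not pass the test in either cancer line. Of all genes, 13.1% were lower by at least 2-fold in 786-O and 15.0% in 786-M1A. The other 5 of the 6 subunits were lower by at least 2-fold in each cancer line. They were *ITGB6*, described above, *ITGA1*, a collagen-binding subunit, *ITGA7*, a laminin-binding subunit of muscle, and *ITGA4* and *ITGB2*, which are best known from leukocytes. The filter used the mean over all 9 libraries, so a gene could pass it through a single line. *ITGA7* passed through HK2 alone, where it had 120 to 155 counts per library. *ITGB7*, with its fewest counts in HK2, was under the filter. The shared direction of the tested subunits thus depends in part on the filter. *ITGA4* had 482 to 745 counts per library in HK2, 31 to 51 in 786-O and 47 to 55 in 786-M1A, a log2FC against HK2 of -3.98 (edgeR adjusted p = 7.29e-19) and -3.54 (edgeR adjusted p = 2.81e-18). *ITGB2* was at 10.7 ± 0.263 CPM (SD, n = 3) in HK2, against 1.28 ± 0.324 CPM in 786-O and against 1.25 ± 0.0502 CPM in 786-M1A, beside 0 counts of the leukocyte genes *PTPRC* and *CD3E* in the same libraries and 11.5 ± 0.584, 7.24 ± 0.492 and 4.19 ± 0.389 CPM of the macrophage receptor gene *CSF1R*. *ITGA1* was at 28.2 ± 0.342 CPM in HK2, against 11.1 ± 0.802 CPM in 786-O and against 6.07 ± 0.524 CPM in 786-M1A, falling at each step (edgeR adjusted p = 1.42e-14 and 4.43e-09). Between 786-M1A and 786-O, *ITGA7* was lower by a log2FC of -1.18 (edgeR adjusted p = 0.00118), on 8 to 17 against 26 to 40 counts, and *ITGA4* was higher by 0.44 (edgeR adjusted p = 0.0338). *ITGAE* passed the test in none of the 3 comparisons, at 20.0 ± 0.651, 20.6 ± 0.875 and 20.5 ± 0.380 CPM.

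The other 10 subunits were under the filter and were not tested. *ITGAX* had 84 to 149 counts per library in HK2, 24 to 41 in 786-O and 1 to 7 in 786-M1A, and *ITGB7* had 3 to 7, 24 to 36 and 68 to 69. *ITGA9* and *ITGA10* had at most 28 and 19 counts in any library, and *ITGA8* had 0 counts in all 9 libraries, which allows up to 0.0661 to 0.0993 CPM by the floor of 3 counts. The remaining *ITGA2B*, *ITGA11*, *ITGAD*, *ITGAL* and *ITGAM* had at most 25 counts.

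**Figure D4:**
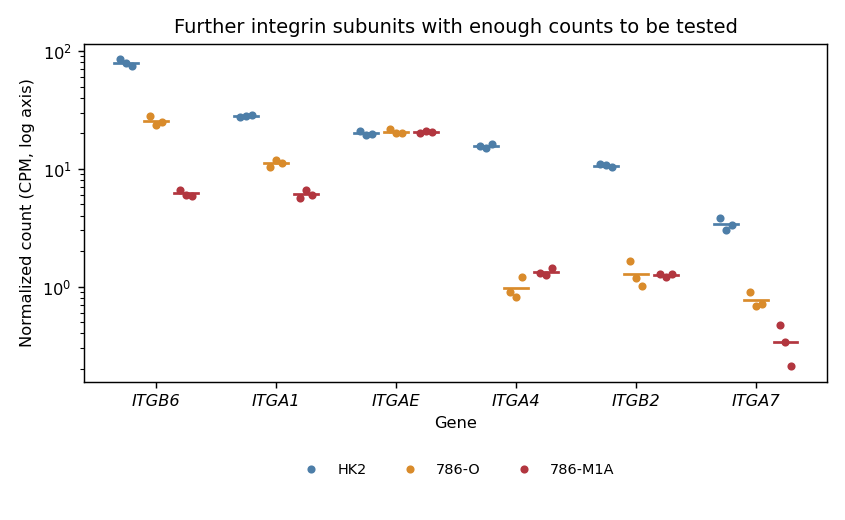
Normalized counts (CPM, log axis) of the 6 further integrin subunits that were tested, with a point per library and a line at the mean of each line. All but *ITGAE* are higher in the 3 HK2 libraries than in any library of the cancer lines, and *ITGB6* falls again from between 23.4 and 28.0 CPM in 786-O to between 5.92 and 6.66 CPM in 786-M1A.

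Integrins are switched on from inside the cell by talins and kindlins and then gather a plaque of adaptor proteins. Of a list of 25 such genes, 24 were tested. Between 786-M1A and 786-O, 17 of the 24 were higher and 3 lower, where 27.9% of all genes were higher and 28.0% lower. The median log2FC was 0.22, where all genes had 0.00. *LIMS2*, which encodes a partner of the integrin-linked kinase, was highest (log2FC 2.27, edgeR adjusted p = 1.63e-12), followed by *FERMT1*, the epithelial kindlin (2.01-fold, edgeR adjusted p = 1.28e-07). *TNS3*, a tensin gene, and *TLN2*, the less common talin, were lower, by a log2FC of -0.75 (edgeR adjusted p = 8.07e-12) and -0.71 (edgeR adjusted p = 2.53e-09). Against HK2, 8 of the 24 were higher and 10 lower in 786-O, where 41.6% of all genes were higher and 42.6% lower. In 786-M1A, 13 were higher and 8 lower, where 41.6% and 43.3% of all genes were. The median log2FC values were -0.02 and 0.18, where all genes had -0.01 and -0.02. *FERMT1* was at 41.9 ± 2.05 CPM (SD, n = 3) in HK2, against 2.35 ± 0.367 CPM in 786-O and against 4.77 ± 0.337 CPM in 786-M1A, while *TLN1*, the main talin, was at 355.3 ± 29.6, 730.3 ± 43.7 and 815.3 ± 34.8 CPM. Of 10 tetraspanins and lateral partners, 9 were tested, of which 7 were higher and 1 lower in 786-O than in HK2, 8 higher and 1 lower in 786-M1A than in HK2, while 5 passed the test between 786-M1A and 786-O, each of them higher. Their median log2FC was 0.92, 0.89 and 0.11 in these comparisons, where all genes had -0.01, -0.02 and 0.00. The shares of all genes were 41.6%, 41.6% and 27.9% higher, and 42.6%, 43.3% and 28.0% lower. *CD151* and *CD82* were the highest of the 9 against HK2, with log2FC values of 1.64 and 1.77 in 786-O and of 1.60 and 1.70 in 786-M1A.

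The genes of integrin ligands were mostly lower in the cancer lines. Of 24 ligand genes 21 were tested. In 786-O, 16 were lower and 4 higher than in HK2, where 42.6% of all genes were lower and 41.6% higher. In 786-M1A, 19 were lower and 2 higher, where 43.3% and 41.6% of all genes were. The median log2FC values were -1.53 and -1.61, where all genes had -0.01 and -0.02. *NID1*, the nidogen that links laminins to collagen in the basement membrane, was at 296.5 ± 18.5 CPM (SD, n = 3) in HK2, against 1.59 ± 0.223 CPM in 786-O and against 3.08 ± 0.476 CPM in 786-M1A, and *LAMA1*, a laminin alpha chain, at 69.2 ± 5.31, 0.334 ± 0.119 and 0.807 ± 0.230 CPM. *LAMA3*, the alpha chain of the laminin bound by *ITGA3* and *ITGA6*, was instead higher, by a log2FC of 1.03 for 786-O (edgeR adjusted p = 9.47e-09) and 0.83 for 786-M1A (edgeR adjusted p = 1.03e-07). Between 786-M1A and 786-O, 8 ligand genes were higher and 10 lower, where 27.9% and 28.0% of all genes were. *TNC*, the tenascin gene, was higher by a log2FC of 2.19 (edgeR adjusted p = 1.04e-12), whereas *COL1A1*, a chain of fibrillar collagen, was lower by -4.15 (edgeR adjusted p = 2.70e-10) and *THBS1*, the thrombospondin gene, by -1.08 (edgeR adjusted p = 8.83e-09). *FN1*, the fibronectin gene and chosen after its values were seen, was at 6538.3 ± 657.6 CPM in HK2, against 1646.5 ± 104.6 CPM in 786-O and against 3986.2 ± 499.9 CPM in 786-M1A, while the mRNA of its receptor subunit *ITGA5* was lowest in HK2. *VTN*, the vitronectin gene and likewise chosen, had at most 1 count in any library.

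Latent TGF-beta is bound by *ITGAV* with *ITGB6* or *ITGB8*. Of a list of 9 genes of TGF-beta ligands, the LTBP family and cell-surface carriers, 7 were tested. Against HK2, 3 were higher and 4 lower in 786-O, where 41.6% of all genes were higher and 42.6% lower. In 786-M1A, 2 were higher and 4 lower, where 41.6% and 43.3% of all genes were. The median log2FC values were -1.28 and -0.49, beside -0.01 and -0.02 over all genes. *LTBP1* and *LTBP4*, which tether latent TGF-beta to the matrix, had more mRNA in 786-M1A than in 786-O, with log2FC values of 2.47 (edgeR adjusted p = 7.18e-09) and 2.04 (edgeR adjusted p = 1.05e-18), and *TGFB1* and *TGFB3*, of the ligands themselves, were lower, by a log2FC of -0.51 (edgeR adjusted p = 6.44e-05) and -1.22 (edgeR adjusted p = 7.66e-06). *LRRC32*, a cell-surface carrier of latent TGF-beta that was named after its values were seen, was not tested, at 0.893 ± 0.287 CPM (SD, n = 3) in HK2 and at most 1 count in any library of the cancer lines. *LTBP2*, of the same family, was lower in both cancer lines than in HK2, by a log2FC of -4.00 for 786-O (edgeR adjusted p = 3.74e-23) and -3.91 for 786-M1A (edgeR adjusted p = 4.91e-23).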

How the data were processed

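RNA was sequenced from 9 libraries, 3 each of HK2, 786-O and 786-M1A, and libraries were grouped by their titles. The authors made TruSeq Stranded mRNA libraries, ran them on a NextSeq and deposited whole-number counts per gene from featureCounts (Rsubread) on hg38, without normalization or a filter. The annotation and strand setting are not given in the sources used here. The table lists 28395 NCBI gene identifiers, 27745 with a RefSeq symbol (GRCh38.p14).

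Counts were fitted with edgeR 4.0.16 in R 4.3.3 (TMM, robust quasi-likelihood, a coefficient per line, all 9 libraries). The 12695 genes averaging 50 or more counts were kept, the cutoff of the paper, and Benjamini-Hochberg adjustment ran over them. Standard errors and 95% intervals derive from the quasi-likelihood F statistic. CPM values use all counted reads times the TMM factor. Exon lengths are from GENCODE 44. The floor was 3 counts, for counting error only. The models were tested on simulated data.

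The paper's VSN with limma was not run; voom with limma 3.58.1 stands in. Other alternatives were DESeq2 1.42.0, RLE or upper-quartile scaling, other filters, only the lines compared, the replicate block, and leaving out each library. The members and gene lists were chosen with earlier results of these data known. The genes named are the 10 subunits, every other tested subunit, and in each list the 2 genes with the largest difference each way among those called without overlap of libraries, or fewer; others are said to be named after their values were seen. A few genes that this rule or the marker lists would name are not reported here.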

Additional observations from a re-analysis of the deposited data

Results flagged for a closer look

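The difference against HK2 was not the same in the cancer lines for 7 of the 10 subunits, by the edgeR test of 786-M1A against 786-O, which 56.0% of all genes tested also passed. The log2 difference in 786-M1A minus that in 786-O was 0.38 for *ITGA2* (edgeR adjusted p = 0.00171) and 0.29 for *ITGB5* (1.37e-06), both further above HK2 in 786-M1A. It was -0.24 for *ITGAV* (3.00e-04), -0.85 for *ITGB3* (3.92e-10) and -0.67 for *ITGB4* (0.0118), each further below HK2. It was -0.43 for *ITGA3* (6.81e-10) and -0.17 for *ITGB8* (0.00877), which stayed above HK2 but less so. The libraries of the cancer lines overlapped for *ITGB8*. Both differences share the HK2 libraries.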

How the results depend on the processing

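Against HK2, all 140 values of the 10 subunits in either cancer line kept their direction and their side of the threshold over 14 alternatives. Between 786-M1A and 786-O, 136 of 140 did. The exceptions were *ITGB4* without 786-O replicate 3 or without 786-M1A replicate 2, *ITGB8* without 786-O replicate 2, and *ITGB1*, which was not called and whose log2 fold change ran from -0.01 without 786-M1A replicate 3 to 0.07 without 786-M1A replicate 1. The cause was not tested. The number of subunits called stayed at 10 and 10 against HK2, and ran from 6 to 7 between the cancer lines as libraries were left out. With the length of the longest transcript, ranks per length stayed for 6 of 10 subunits in HK2, for 5 in 786-O and for 6 in 786-M1A. A replicate block left 10 and 10 subunits called against HK2 and 7 between the cancer lines. Same-numbered libraries of 786-M1A and 786-O deviated together with correlations across genes of 0.215, 0.074 and 0.11, and those of 786-O and HK2 with -0.0285, -0.0573 and -0.0508, so the numbers were not taken as pairs. Counts of all genes past the threshold were within 1.5 times those of the report under every alternative. Depth limits *ITGB4* in 786-M1A, on 22 to 41 counts. A VSN calibration was not run.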
